A study of Mus musculus with 6 samples.

Results

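The 35 genes described here encode enzymes and membrane proteins of the lysosome: 9 glycosidases, 5 sulphatases, 7 lipid-handling proteins, 10 proteases and 4 membrane proteins. They were taken by gene symbol, and each matched 1 of the 41921 rows of the deposited count table. Their RNA was counted by sequencing in 6 libraries from RAW264.7, a line of mouse macrophages from which osteoclasts, cells that resorb bone, can be grown. The labels put 3 libraries under albiflorin, a glycoside found in peony, and 3 under RANKL, the cytokine that drives osteoclast formation. All 6 are labelled WT and as undergoing osteoclast differentiation, and carry the same protocol text, in which RANKL was given at 50 ng/mL once cultures were 3 days beyond confluence. No source used here gives the dose or time of albiflorin or says, beyond that shared text, whether it was added on top of RANKL, and there was no untreated group among the libraries analysed. Replicates are not described as separate cultures, so each p-value reflects the spread among these 6 libraries alone, and that spread may be technical.

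Lysosomes are acidic compartments in which glycans, lipids and proteins are taken apart. Most soluble hydrolases are made in the endoplasmic reticulum, tagged with mannose 6-phosphate in the Golgi and carried to the lysosome by mannose 6-phosphate receptors. Macrophages use them to digest what they engulf, and osteoclasts release part of the same set, above all cathepsin K and the acid phosphatase TRAP, onto bone. Inherited loss of many of them causes a storage disease in humans.

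Totals ran from 13673284 to 15489482 counts per library, and every member was counted in every library, with 156 to 32037 reads. Summed over 9 matched macrophage markers, levels in CPM, counts relative to the scaled library size, were 4134 to 4308 CPM with albiflorin and 3994 to 4292 CPM with RANKL, and Mertk was near 0. The row named Itgam had at most 0.0734 CPM, but another row, whose deposited description names the same protein, had 169.5 to 203 CPM with albiflorin and 125 to 154 CPM with RANKL. Lyz2, the remaining listed marker, matched no row by name. A row described as Lyz2 had 6010, 6790 and 6178 CPM with albiflorin and 5117, 4971 and 5133 CPM with RANKL. Another so described had 1859, 2050 and 2173 CPM with albiflorin and 2101, 2219 and 1946 CPM with RANKL. Rows found only by description did not enter the sum. Of 10 osteoclast markers 4 stayed under 1 CPM in all libraries (Ctsk, Calcr, Ocstamp and Oscar). Ctsk, the cathepsin K gene, was at 0.693 ± 0.200 CPM with albiflorin and 0.457 ± 0.121 CPM with RANKL (SD, n = 3 each), and Calcr was at 0. Summed over all 10 they were 186 to 196 CPM with albiflorin and 194 to 208 CPM with RANKL. Nfatc1 alone, at 122 ± 5.50 CPM with albiflorin and 143 ± 7.45 CPM with RANKL, held most of that sum. The sum does not stand for the markers as a set: of the 7 tested, 5 had a positive and 2 a negative fold change. Of 7 tested macrophage markers Spi1 (0.31) and Cd14 (0.26) were higher and Adgre1 (-0.30) lower on the log2 scale, and of 7 tested osteoclast markers Acp5, the TRAP gene (0.29), was higher and Nfatc1 (-0.22) lower (edgeR adjusted p 0.00232, 0.0119, 0.00933, 0.0371 and 0.0180). Their part in the results below was not tested. The summed markers of T cells, B cells, fibroblasts, epithelium and neutrophils did not exceed 5.23 CPM for any of these lists in any library.

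Levels of the 35 genes spanned 272-fold when compared per length, as FPKM, the authors' counts relative to gene length and library total. The most abundant was Lamp1, the main glycoprotein of the lysosomal membrane, at 837 ± 35.5 FPKM with albiflorin and 818 ± 30.2 FPKM with RANKL (SD, n = 3 each, as in all values below). It was followed by the cysteine protease genes Ctss and Ctsz and by Psap, the precursor of the saposins, small proteins that present sphingolipids to their hydrolases. Ctss stood at 732 ± 42.6 FPKM with albiflorin and 591 ± 23.3 FPKM with RANKL. For Psap the levels were 609 ± 38.1 FPKM with albiflorin and 679.7 ± 20.8 FPKM with RANKL. Ctss was thus above Psap with albiflorin and below it with RANKL. Ctsb, Ctsd and Lgmn came next, with mean levels over all 6 libraries of 445, 432 and 409 FPKM, and neighbours among these 3 were no farther apart than the larger of their SDs. Ctsh was lowest (3.21 ± 0.185 FPKM with albiflorin and 2.87 ± 0.496 FPKM with RANKL), and the cholesterol exporter gene Npc1, Arsa, Galns, Ctsc, Gla, Ids and Sgsh came next above it. Arsb, the highest sulphatase, stood at 21.2 ± 2.63 FPKM with albiflorin and 30.5 ± 1.79 FPKM with RANKL. The 10 highest members held 80.0% of the summed FPKM of all 35. FPKM rests on the listed gene length, which can differ from that of the principal mRNA in GENCODE M21: Lamp2 is listed at 9552 bases against 3604, Ctsh at 4499 against 1617, Npc1 at 10725 against 5224, Ctsc at 5801 against 2493 and Ctsl at 1971 against 6168. Rescaled to mRNA length, the span was 99.1-fold, Lamp1, Ctss, Psap and Ctsz were still the highest, and Ctsh (8.45) and Arsa (8.51) lay side by side at the low end. This rescaling was chosen after the values were seen.

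**Figure D1:**
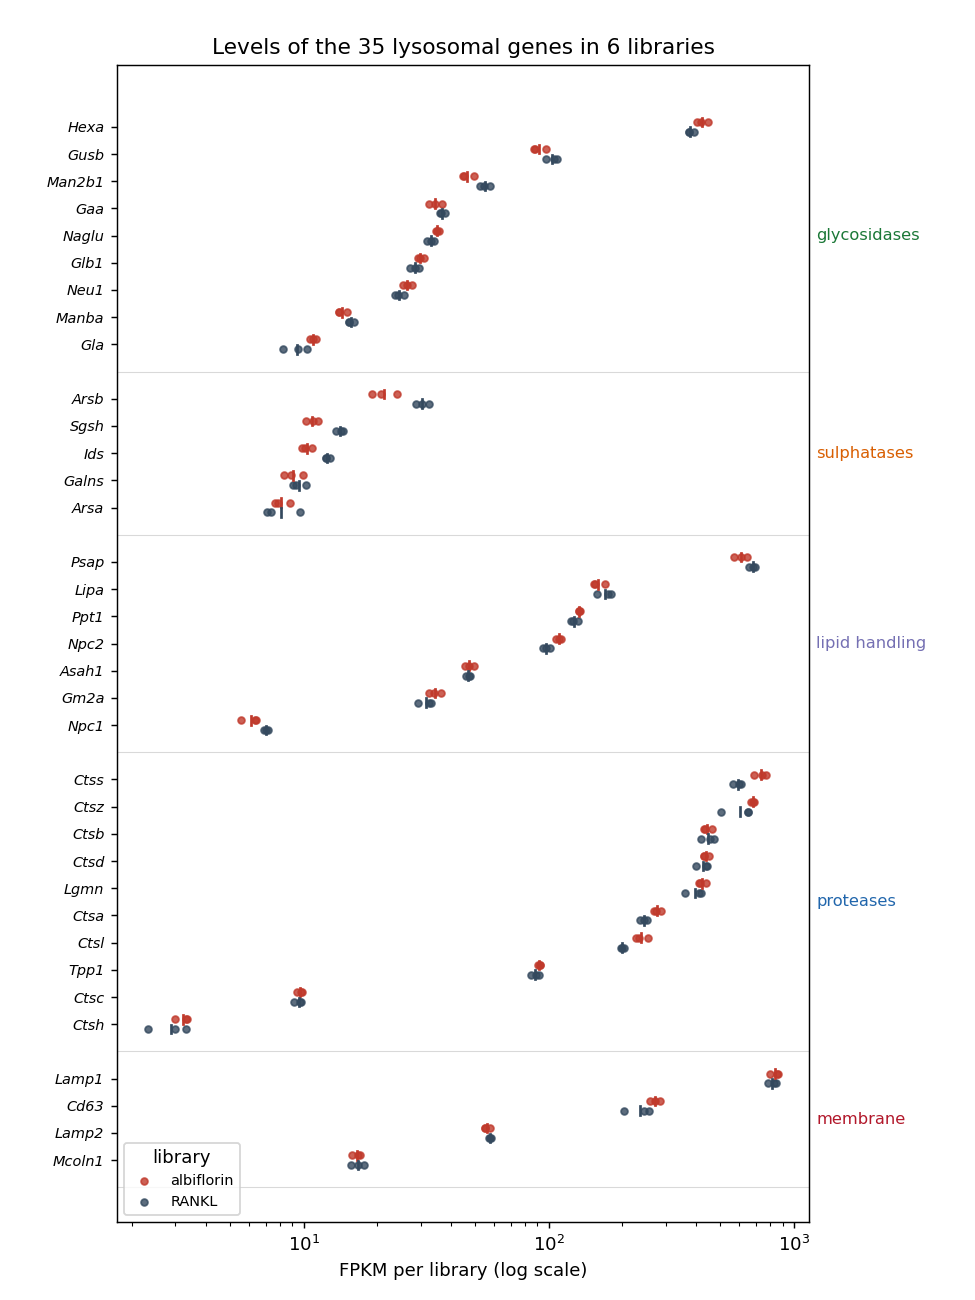
FPKM of each gene (log axis) in each library, by role, with albiflorin libraries above RANKL libraries in each row; points are libraries and short bars group means. Lamp1, Ctss, Psap and Ctsz are highest and Ctsh lowest, and the groups stay close together in every row compared with the distance between genes.

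Many lysosomal genes are known to carry in their promoters the CLEAR element, an E-box palindrome bound by the MiT factors TFEB, TFE3 and MITF, so the letters CACGTG were looked for on both strands in RefSeq promoter windows of GRCm38.p6, which run from 250 bases before to 50 bases after each start. Windows were found for 30 members; Asah1, Ctsb, Ctsh, Galns and Npc1 had none. CACGTG was present in 12 of the 30 (40.0%), against 1042 of 8726 tested genes with a window (11.9%) and 8.09% of all 27025 genes in the table. Extended by 1 base to TCACGTG, it was present in 11 members (36.7%) and 7.11% of tested genes; as TCACGTGA, in 4 members (13.3%) and 2.21%; and as the full palindrome GTCACGTGAC, in 0 members and 0.882%. Each of these strings contains the shorter ones. A gene counted as matching if any of its windows held the letters. Because the element is known from lysosomal genes, a higher share among members is no independent test. Matches were in 4 of 9 glycosidase, 2 of 4 sulphatase, 0 of 5 lipid-handling, 4 of 8 protease and 2 of 4 membrane genes. The windows below show, 5′ to 3′ on the gene's strand, the members called in the comparison that had a match (Ctsa, Sgsh and Ctsl) and those with the most matches or the longest (Lamp1, Mcoln1, Ctsd and Gla). Capitals mark CACGTG with a flanking T before it or A after it, where present, and each stretch stops at or before the base ahead of the start.
Ctsa: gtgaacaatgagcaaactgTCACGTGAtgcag
Sgsh: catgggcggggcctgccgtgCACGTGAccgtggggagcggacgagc
Ctsl: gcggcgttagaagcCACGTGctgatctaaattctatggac
Lamp1: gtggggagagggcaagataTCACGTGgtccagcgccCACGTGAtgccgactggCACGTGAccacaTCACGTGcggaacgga
Mcoln1: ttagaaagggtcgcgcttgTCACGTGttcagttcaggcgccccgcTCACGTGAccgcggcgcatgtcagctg
Ctsd: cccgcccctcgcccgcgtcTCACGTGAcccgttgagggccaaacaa
Gla: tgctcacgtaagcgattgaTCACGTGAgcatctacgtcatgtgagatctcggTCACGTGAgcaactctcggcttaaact

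These stretches lie at chr2:164833741-164833772 (+) for Ctsa, chr11:119355514-119355559 (-) for Sgsh, chr13:64370731-64370770 (-) for Ctsl, chr8:13159080-13159160 (+) for Lamp1, chr8:3500428-3500499 (+) for Mcoln1, chr7:142387900-142387945 (-) for Ctsd and chrX:134601174-134601252 (-) for Gla. Lamp1 held 4 matches within its last 81 bases before the start, and Mcoln1, which encodes the lysosomal calcium channel TRPML1, held 2. The match in Ctsl began 236 bases before the start, and those in Ctsa and Sgsh 12 and 29 bases before it; Ctsa held another, not shown, from base 6 after the start, and Ctsd another 245 bases before it. Matches were present in 3 of the 8 members with a window that were called below and in 9 of the 22 that were not. A match describes letters and does not show binding.

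The comparison asked which of these genes were higher or lower in cells labelled albiflorin than in cells labelled RANKL. Of the 35 genes 4 were higher (Ctss, Ctsl, Ctsa and Npc2) and 5 lower (Arsb, Sgsh, Ids, Man2b1 and Npc1) by edgeR's quasi-likelihood test with Benjamini-Hochberg adjusted p under 0.05 over all 13158 tested genes. That is 25.7% of the members, against 23.8% of all tested genes (12.4% higher and 11.4% lower), so the number called was close to the background. By role, 0 glycosidases were higher and 1 lower of 9, 0 sulphatases higher and 3 lower of 5, 1 lipid-handling gene higher and 1 lower of 7, 3 proteases higher and 0 lower of 10, and no membrane gene either way; differences between roles were not tested. All changes were small. The median absolute log2 fold change was 0.12 for members and 0.17 for tested genes, and 3 members (8.57%) passed 0.3 in size, against 26.0% of tested genes. Members and tested genes were not matched for level. Every member had at least 156 reads per library, whereas tested genes include rows with few reads, such as Ocstamp (4 to 14 reads, SE 0.510). The groups' libraries did not overlap for 17 members, 10 above and 7 below, against 40.1% of tested genes (20.8% above and 19.3% below). In these bulk samples fewer cells of a type and less RNA per cell cannot be told apart, and RNA levels do not measure enzyme activity. Without albiflorin replicate 1, 2 members were higher and 3 lower; without albiflorin replicate 2 or RANKL replicate 2, 2 were higher and 4 lower.

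**Figure D2:**
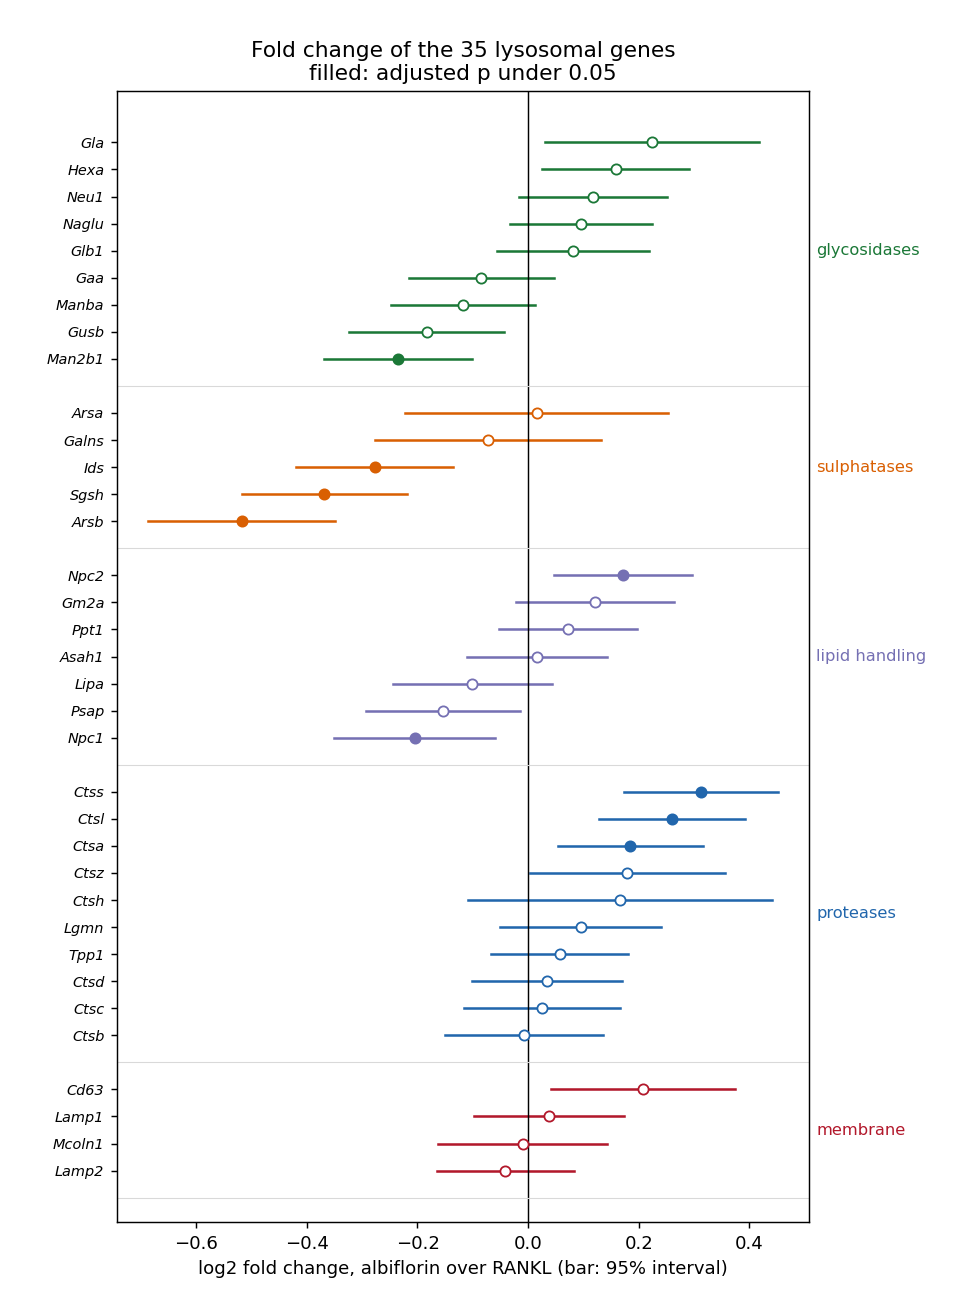
Log2 fold change of albiflorin over RANKL for each gene, by role, with its unadjusted 95% interval; filled points are called at adjusted p under 0.05. Arsb, Sgsh and Ids lie lowest, at -0.52, -0.37 and -0.28, and Ctss and Ctsl highest, at 0.31 and 0.26.

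Sulphatases, which take sulphate groups off glycosaminoglycans and sulpholipids, had 3 of 5 genes called, all lower, against 11.4% of all tested genes called lower. Their median log2 fold change was -0.28, against 0.0056 over all tested genes. Arsb (MGP_C57BL6NJ_G0021216, chromosome 13, 98046619 to 98239445) encodes arylsulphatase B, which acts on dermatan and chondroitin sulphate. It had 83.2, 76.3 and 96.7 CPM in the albiflorin libraries, against 129.6, 115 and 122 CPM in the RANKL libraries. Every albiflorin library was below every RANKL library, and the group means of 85.4 ± 10.4 CPM with albiflorin and 122 ± 7.23 CPM with RANKL gave a log2 fold change of -0.52 ± 0.0796 (SE; edgeR adjusted p = 0.000539), a fall of 30.2% and the largest change of any member. Sgsh (MGP_C57BL6NJ_G0019872, chromosome 11, 127498403 to 127511009), the heparan N-sulphatase gene, had 50.9, 45.5 and 48.2 CPM in the albiflorin libraries, against 63.9, 60.0 and 62.9 CPM in the RANKL libraries. It fell by 0.37 on the log2 scale (SE 0.0703; edgeR adjusted p = 0.00187), again with no overlap; it shares ground with the oppositely placed Card14, which had 13.5% as many counts. For Ids (MGP_C57BL6NJ_G0036276, chromosome X, 67960062 to 67981480), which encodes iduronate 2-sulphatase, which acts on heparan and dermatan sulphate, values were 52.2, 50.9 and 55.5 CPM in the albiflorin libraries, against 63.4, 65.8 and 63.0 CPM in the RANKL libraries. The groups did not overlap, and the log2 fold change was -0.28 ± 0.0671 (edgeR adjusted p = 0.00756). The calls of Arsb and Sgsh held in all 16 alternatives (adjusted p 1.14e-11 to 0.0197 and 5.19e-05 to 0.0205), and that of Ids in 15, ending with the mRNA-length trend described below removed (0.1001).

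The other sulphatases did not pass. Arsa, the arylsulphatase A gene, whose enzyme acts on sulphatide, had 28.3, 32.7 and 29.1 CPM in the albiflorin libraries, against 35.9, 26.1 and 27.3 CPM in the RANKL libraries. Its groups overlapped and RANKL replicate 1 was the highest library. The log2 fold change of 0.016 ± 0.112 (edgeR adjusted p = 0.942) had a 95% interval of -0.22 to 0.25. Galns, which acts on keratan sulphate and chondroitin 6-sulphate, stood at 23.6 ± 2.03 CPM with albiflorin and 24.8 ± 1.64 CPM with RANKL (-0.072, edgeR adjusted p = 0.641). Summed over the role, sulphatases stood at 59.5 ± 3.59 FPKM with albiflorin and 74.7 ± 3.93 FPKM with RANKL, or 0.0161 ± 0.00146% with albiflorin and 0.0225 ± 0.000701% with RANKL of all FPKM. The summed levels did not overlap between the groups.

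Glycosidases cleave sugars from glycoproteins, glycolipids and glycosaminoglycans. Of the 9, only Man2b1 was called, as lower, and the median log2 fold change was 0.081, and was 0.051 without RANKL replicate 2 and 0.052 without albiflorin replicate 2. Man2b1 (MGP_C57BL6NJ_G0034391, chromosome 8, 89323553 to 89348617) encodes the acid alpha-mannosidase that trims N-glycans. It had 197, 195 and 215 CPM in the albiflorin libraries, against 228, 250.3 and 236 CPM in the RANKL libraries. No library of a group overlapped the other group, and the log2 fold change was -0.24 ± 0.0634 (edgeR adjusted p = 0.0138). Without albiflorin replicate 1 or RANKL replicate 2 its adjusted p was 0.0657 and 0.0647 (0.00279 to 0.0657 over all alternatives). Gusb, the beta-glucuronidase gene, lay just outside the threshold, with 400.3, 404 and 446 CPM in the albiflorin libraries, against 494, 443 and 482 CPM in the RANKL libraries. Its groups overlapped at albiflorin replicate 3 and RANKL replicate 2 (log2 fold change -0.18 ± 0.0662, edgeR adjusted p = 0.0554), and it passed as lower in 8 of 16 alternatives, among them DESeq2 (0.0271) and limma-voom (0.0449), over a range of 0.0182 to 0.190.

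Hexa, whose product is the alpha subunit of the beta-hexosaminidase that acts on GM2 ganglioside, was the most abundant glycosidase gene by FPKM. It had 754, 838 and 782 CPM in the albiflorin libraries, against 730.3, 698 and 699 CPM in the RANKL libraries. All albiflorin libraries were above all RANKL libraries, but the log2 fold change of 0.16 ± 0.0628 did not pass (edgeR adjusted p = 0.0783) except with DESeq2 (0.0475; 0.0475 to 0.872 over all alternatives). Gla, the alpha-galactosidase A gene, had the largest positive value of the role (0.22 ± 0.0917, edgeR adjusted p = 0.0893) and passed only without RANKL replicate 3 (0.30, 0.0435; 0.0435 to 0.321 over all alternatives). Neu1, Naglu, Glb1, Gaa and Manba, which encode a sialidase, an alpha-N-acetylglucosaminidase, a beta-galactosidase, the acid alpha-glucosidase of glycogen and a beta-mannosidase, had log2 fold changes of 0.12, 0.10, 0.081, -0.085 and -0.12, with adjusted p from 0.181 to 0.395. Glb1 overlaps Tmppe on the same strand, a row with 47.2% as many counts, so its own value is uncertain. Glycosidases together summed to 710.1 ± 24.1 FPKM with albiflorin and 685 ± 17.0 FPKM with RANKL. As a share of all FPKM the direction turned, to 0.192 ± 0.00686% with albiflorin and 0.206 ± 0.00133% with RANKL, with every albiflorin library below every RANKL library.

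**Figure D3:**
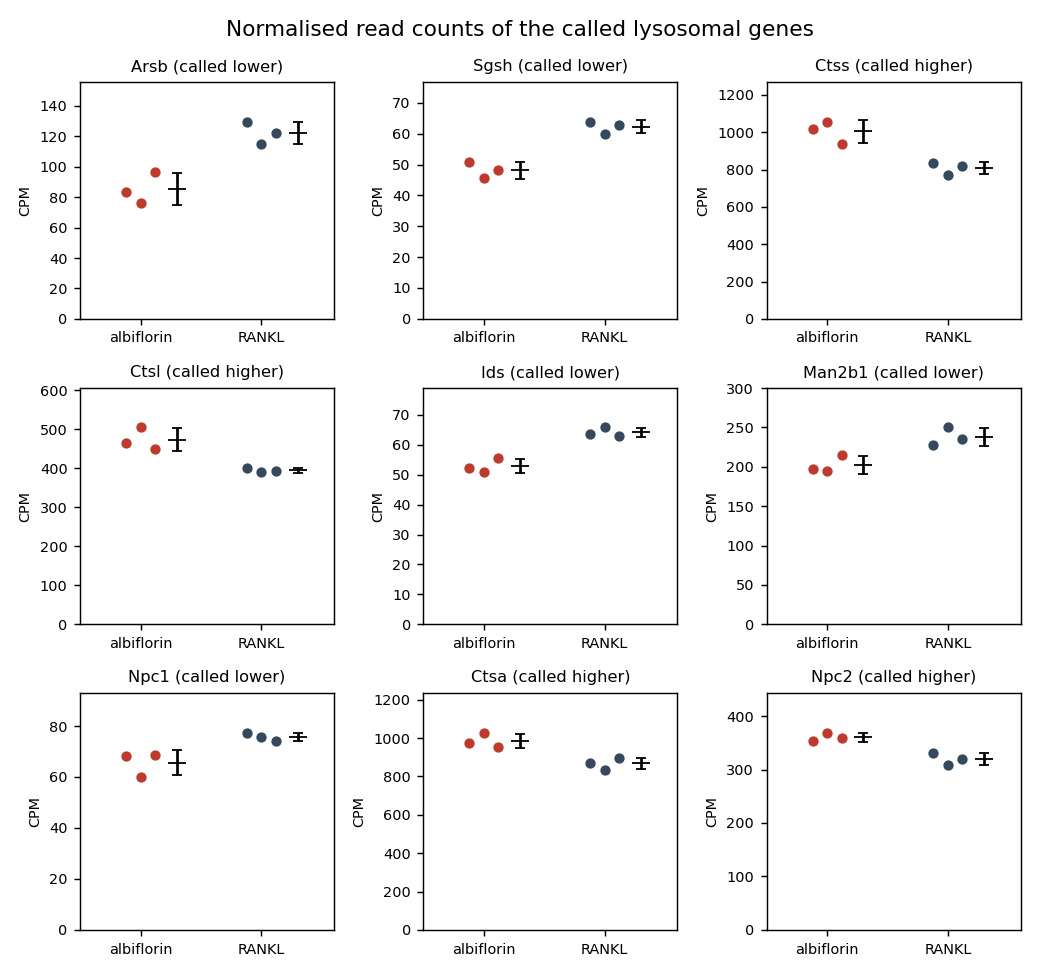
CPM of the 9 called genes in each library (coloured points; axis from 0), with mean and SD beside them in black. No albiflorin library overlaps a RANKL library in any of the panels, and the differences are modest beside the levels.

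Lipid handling held 1 higher and 1 lower gene of 7, both of the pair that passes cholesterol out of the lysosome. That is 28.6% called, near the 23.8% of all tested genes. Npc2 is the soluble protein that takes up cholesterol in the lumen and hands it to Npc1 in the membrane. Npc2 (MGP_C57BL6NJ_G0020332, chromosome 12, 87959571 to 87978121) had 353, 369 and 359 CPM in the albiflorin libraries, against 331, 309 and 319 CPM in the RANKL libraries. Npc1 (chromosome 18) had 68.3, 60.1 and 68.6 CPM in the albiflorin libraries, against 77.4, 75.7 and 74.1 CPM in the RANKL libraries. Npc2 was higher, with a log2 fold change of 0.17 ± 0.0587 (edgeR adjusted p = 0.0429, the called member nearest the threshold), and Npc1 lower, at -0.20 ± 0.0687 (edgeR adjusted p = 0.0398), neither with overlap. Npc2 was called in 4 of 16 alternatives and Npc1 in 6. Leaving out any of the 6 libraries ended the call of Npc2 (adjusted p 0.0614 to 0.123), as did RLE scaling (0.0501), no filter on low counts (0.0841) and both fits on FPKM (0.0547 and 0.0562). Leaving out any except albiflorin replicate 3 ended that of Npc1 (0.0625 to 0.152), as did both fits on FPKM (0.121 in each). Npc1 also overlaps the oppositely placed gene 3110002H16Rik, which had 40.3% as many counts, and no source used here says whether counting used strand.

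Psap, the most abundant gene of this role, had 1569, 1681 and 1773 CPM in the albiflorin libraries, against 1913, 1799 and 1876 CPM in the RANKL libraries. Every albiflorin library was below every RANKL library, and the log2 fold change was -0.15 ± 0.0660 (edgeR adjusted p = 0.105). It passed as lower with DESeq2 (0.0432), without albiflorin replicate 3 (0.0424) and with either length trend removed (0.00968 to 0.326 over all alternatives). The acid lipase gene Lipa, which frees cholesterol from its esters, stood at 473 ± 26.7 CPM with albiflorin and 507 ± 34.4 CPM with RANKL (-0.10, edgeR adjusted p = 0.306). Gm2a, the activator that lifts GM2 ganglioside to beta-hexosaminidase, stood at 143 ± 8.04 CPM with albiflorin and 131 ± 8.81 CPM with RANKL (0.12, edgeR adjusted p = 0.210). Ppt1, a thioesterase that removes palmitate from proteins, and Asah1, the acid ceramidase gene, had log2 fold changes of 0.072 and 0.016, with 95% intervals of -0.052 to 0.20 and -0.11 to 0.14. Ppt1 overlaps the opposite-strand gene Cap1, which had 227% as many counts. Lipid-handling genes summed to 1099 ± 47.6 FPKM with albiflorin and 1161 ± 28.9 FPKM with RANKL, or as a share of all FPKM to 0.298 ± 0.0193% with albiflorin and 0.349 ± 0.00365% with RANKL.

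Of the 10 proteases 9 had a positive fold change and 3 were called, all higher, against 50.9% of all tested genes with a positive fold change and 12.4% called higher. Their median log2 fold change was 0.13, and 0.064 without RANKL replicate 2. With the gene-length or mRNA-length trend described below removed, 7 and 5 of the 10 were positive. Ctss (MGP_C57BL6NJ_G0028005, chromosome 3, 99827026 to 99861070) encodes cathepsin S, which cuts the invariant chain of MHC class II in antigen-presenting cells. By the mean of all 6 libraries it is the most abundant protease gene here per length. With RANKL alone Ctsz, at 602 ± 83.3 FPKM, lay above Ctss, at 591 ± 23.3 FPKM. Ctss had 1018, 1056 and 937 CPM in the albiflorin libraries, against 833, 772 and 819.7 CPM in the RANKL libraries. The groups did not overlap, and means of 1004 ± 60.6 CPM with albiflorin and 808 ± 32.4 CPM with RANKL gave a log2 fold change of 0.31 ± 0.0655 (edgeR adjusted p = 0.00324), a rise of 24.2%. Ctsl (MGP_C57BL6NJ_G0021066, chromosome 13, 66459209 to 66466354), the cathepsin L gene, had 465, 505 and 448 CPM in the albiflorin libraries, against 401, 389 and 393 CPM in the RANKL libraries. RANKL libraries lay close together and all albiflorin libraries were above them (log2 fold change 0.26 ± 0.0624, edgeR adjusted p = 0.00716). Ctsa (MGP_C57BL6NJ_G0027302, chromosome 2, 175271911 to 175281547) encodes a serine carboxypeptidase that also protects beta-galactosidase and sialidase in a complex; it had 975, 1028 and 956 CPM in the albiflorin libraries, against 871, 836 and 897 CPM in the RANKL libraries. It was higher, with a log2 fold change of 0.18 ± 0.0620 (edgeR adjusted p = 0.0399), but not without albiflorin replicate 1 or 2 or any RANKL library (adjusted p 0.0668 to 0.117; 0.0117 to 0.117 over all alternatives). Its partners in that complex, Glb1 and Neu1, were not called. Ctsa overlaps the opposite-strand gene Pltp, which had 16.7% as many counts.

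The other proteases did not pass. Ctsz had 996, 994 and 969 CPM in the albiflorin libraries, against 944, 731 and 938 CPM in the RANKL libraries, where RANKL replicate 2 stood far below its group, and its log2 fold change of 0.18 ± 0.0832 had an adjusted p of 0.134 (edgeR). RANKL replicate 2 was also the lowest library for Lgmn, at 728 CPM, and for Ctsb and Ctsd. Ctsb and Ctsd, the most abundant papain-family and aspartic cathepsin genes by CPM, stood at 2116 ± 79.5 CPM with albiflorin and 2128 ± 133 CPM with RANKL, and at 1107 ± 28.7 CPM with albiflorin and 1082 ± 61.4 CPM with RANKL. Their log2 fold changes of -0.0076 and 0.034 had 95% intervals of -0.15 to 0.13 and -0.10 to 0.17. Lgmn, an asparaginyl endopeptidase that processes cathepsins (0.10, edgeR adjusted p = 0.343), Tpp1, a tripeptidyl peptidase (0.057, 0.520), Ctsc, which activates granule serine proteases (0.025, 0.830), and Ctsh, an aminopeptidase (0.17, 0.387), were also not called. Proteases summed to 3332 ± 59.8 FPKM with albiflorin and 3008 ± 198 FPKM with RANKL, with no overlap between groups, but to 0.902 ± 0.0139% with albiflorin and 0.905 ± 0.0411% with RANKL as a share of all FPKM, summed FPKM of all genes being higher in the albiflorin libraries. RANKL replicate 2 had the lowest protease sum, at 2780.3 FPKM.

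None of the 4 membrane proteins was called. Lamp1 had 1809.9, 1959 and 1937 CPM in the albiflorin libraries, against 1874, 1907 and 1779 CPM in the RANKL libraries. Groups overlapped, and its log2 fold change of 0.037 ± 0.0640 (edgeR adjusted p = 0.724) had a 95% interval of -0.10 to 0.17. Lamp2, needed for chaperone-mediated autophagy and fusion with autophagosomes, stood at 538 ± 15.5 CPM with albiflorin and 553 ± 3.08 CPM with RANKL (-0.041, interval -0.16 to 0.083), and Mcoln1 at 54.2 ± 2.02 CPM with albiflorin and 54.6 ± 3.43 CPM with RANKL (-0.0100, interval -0.16 to 0.14). Cd63, a tetraspanin of late endosomes and lysosomes, had 283, 295 and 267 CPM in the albiflorin libraries, against 267, 211 and 254 CPM in the RANKL libraries. Albiflorin libraries were all above RANKL libraries, narrowly between albiflorin replicate 3 and RANKL replicate 1, with RANKL replicate 2 the lowest, and the log2 fold change of 0.21 ± 0.0784 did not pass (edgeR adjusted p = 0.0663). It passed on leaving out RANKL replicate 1 (0.0337) or albiflorin replicate 3 (0.0454), and when low counts were not filtered (0.0245), out of a range of 0.0245 to 0.476. Its direction turned once the trend on gene length described below was taken out (-0.10, adjusted p = 0.291), and likewise for mRNA length (-0.071, adjusted p = 0.476). A processed pseudogene of Cd63 on chromosome 18, with 241 to 324 counts per library, may share its reads. Over all roles, 21 of the 26 uncalled members had a 95% interval within 1.25-fold either way; Gla, Gusb, Ctsh, Ctsz and Cd63 did not, and the widest interval, that of Ctsh, reached 1.36-fold.

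Direction moved with gene length. The 4 members called higher had listed lengths of 1361 to 3538 bases, and the 5 called lower 3989 to 10725. Across the 35 genes, which come from the same 6 libraries and are no replicates, Spearman's rho between fold change and listed length was -0.59. Between fold change and GENCODE M21 mRNA length it was -0.47. Over all tested genes the rho with listed length was -0.42. Over the 10469 tested genes that had an mRNA length, the rho with that length was -0.62. When each library's trend on listed gene length was removed, 1 member was higher and 5 lower (15.1% of tested genes called, 7.18% higher and 7.96% lower). Arsb (-0.52, adjusted p = 0.000439), Sgsh (-0.35, adjusted p = 0.00238), Ids (-0.23, adjusted p = 0.0180), Man2b1 (-0.22, adjusted p = 0.0156) and Ctsa (0.16, adjusted p = 0.0474) kept their calls, and Psap (-0.24, adjusted p = 0.00968) was added. Ctss (0.066, adjusted p = 0.411), Ctsl (0.10, adjusted p = 0.221), Npc2 (0.13, adjusted p = 0.0946) and Npc1 (-0.023, adjusted p = 0.841) were no longer called. The sign turned for 10 members with this trend removed and for 10 with the mRNA-length trend removed, none of them called as counted. What the length trend itself comes from was not tested.

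**Figure D4:**
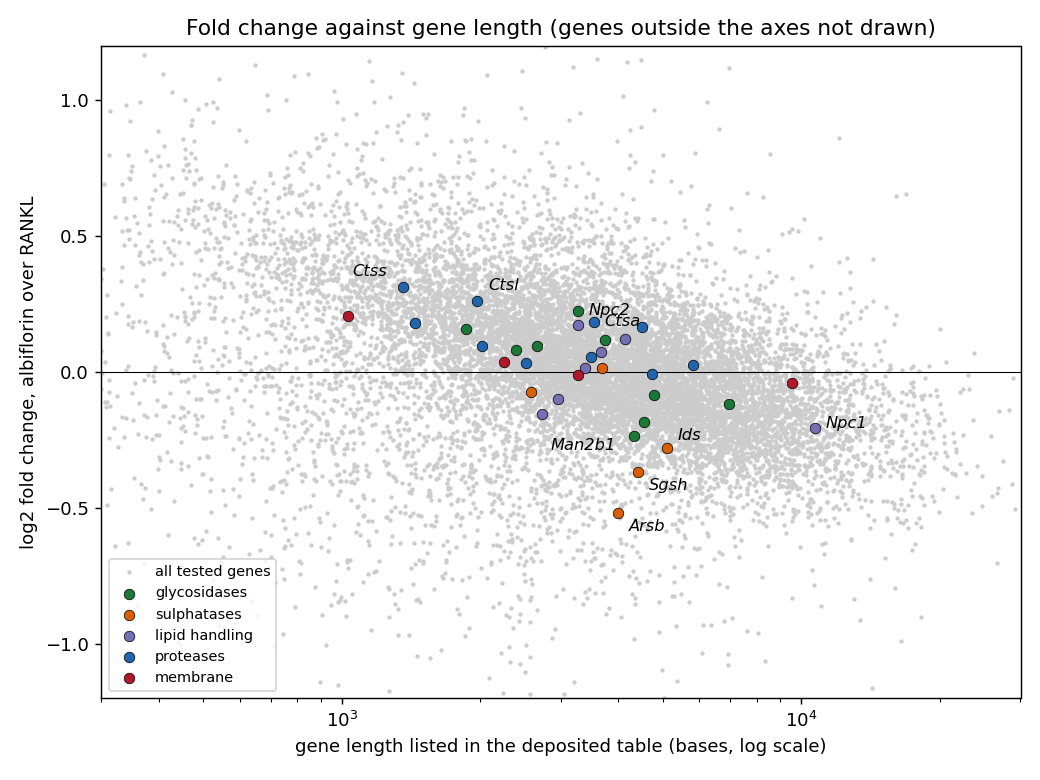
Log2 fold change of albiflorin over RANKL against gene length (log axis), with all tested genes in grey and the 35 members coloured by role; called members are named. The cloud slopes down with length, and Arsb and Sgsh lie low among members of their length, while Ctss and Npc1 lie at opposite ends of the slope.

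With the trend on mRNA length removed instead, 4 members were higher and 5 lower (10.5% of tested genes called, 5.04% higher and 5.5% lower). Of the 9 calls 6 were shared with the unadjusted comparison: Arsb (-0.45, adjusted p = 0.00128), Sgsh (-0.28, adjusted p = 0.0127), Man2b1 (-0.18, adjusted p = 0.0401), Ctsa (0.23, adjusted p = 0.0117), Npc2 (0.19, adjusted p = 0.0187) and Ctsl (0.44, adjusted p = 0.00100). Psap (-0.19, adjusted p = 0.0311), Gusb (-0.22, adjusted p = 0.0221) and Gm2a (0.20, adjusted p = 0.0323) were added. Ids (-0.15, adjusted p = 0.1001), Ctss (0.087, adjusted p = 0.250) and Npc1 (-0.070, adjusted p = 0.495) were not called. The value of Ctsl rests on its annotated length, which is 1971 bases in the deposited table and 6168 for the principal transcript taken from GENCODE M21, and the removals use these different lengths. Arsb, Sgsh and Man2b1 as lower, and Ctsa as higher, were thus the members called with and without either trend. Over all 16 alternatives the call of Man2b1 held in 14 and that of Ctsa in 8. The replicate block and both fits on FPKM also ended the call of Ctsa.

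**Figure D5:**
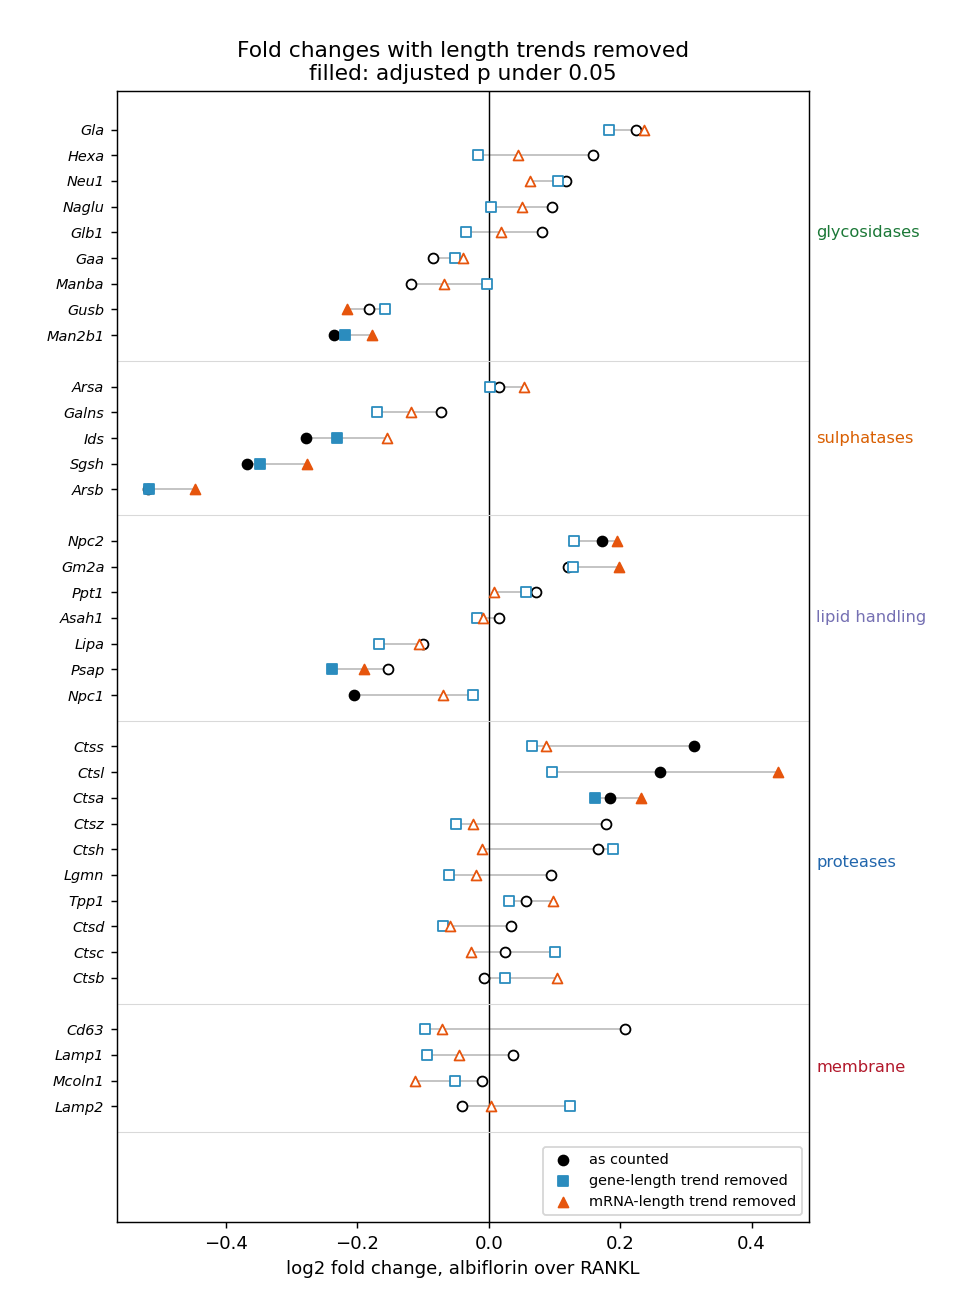
Log2 fold change of each gene as counted (circles), with the gene-length trend removed (squares) and with the mRNA-length trend removed (triangles); filled symbols are called at adjusted p under 0.05. Arsb and Sgsh are filled in every form, Ctss as counted only, and the symbols of Ctsl lie far apart, at 0.26, 0.10 and 0.44.

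Among 26 tested further hydrolases 2 were higher and 2 lower (15.4% called), with a median log2 fold change of 0.025. Over all tested genes 23.8% were called, 12.4% higher and 11.4% lower. The carboxypeptidase gene Prcp was lower (-0.23 ± 0.0763, edgeR adjusted p = 0.0359) and kept its call with either trend removed. Acp5, given among the osteoclast markers above, was higher and lost its call with either trend removed (adjusted p = 0.618 for gene length and 0.623 for mRNA length). Among 24 genes of lysosomal membrane and transport 1 was higher and 4 lower (20.8% called), with a median of -0.056. Tpcn1, an endolysosomal cation channel (-0.41 ± 0.0649, edgeR adjusted p = 0.000666), Abca2, a lipid transporter (-0.39 ± 0.0790, edgeR adjusted p = 0.00281), and Laptm5, a lysosomal protein of blood cells (-0.32 ± 0.0679, edgeR adjusted p = 0.00323), were lower. Tpcn1 and Laptm5 kept their calls with either trend removed; Abca2 kept its call without the gene-length trend (-0.24, adjusted p = 0.0178) but not without the mRNA-length trend (-0.16, adjusted p = 0.0943).

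Genes that sort hydrolases to the lysosome held 1 higher and 5 lower of 14 (42.9% called), with a median of -0.022. Scarb2, called lower, belongs to this list and to that of membrane and transport, and is counted in both. Over all tested genes 23.8% were called, 12.4% higher and 11.4% lower. With either length trend removed the sorting list held 1 higher and 0 lower. Gnptab, the phosphotransferase that makes the mannose 6-phosphate tag, stood at 139 ± 9.75 CPM with albiflorin and 164 ± 5.50 CPM with RANKL (-0.24 ± 0.0646, edgeR adjusted p = 0.0127). Igf2r, the large mannose 6-phosphate receptor, stood at 136 ± 16.6 CPM with albiflorin and 167 ± 7.92 CPM with RANKL (-0.30 ± 0.0787, edgeR adjusted p = 0.0127), and the sortilin gene Sort1 at 33.5 ± 2.65 CPM with albiflorin and 42.9 ± 4.16 CPM with RANKL (-0.36 ± 0.0902, edgeR adjusted p = 0.00988). These 3 are long genes, listed at 5884, 9438 and 7569 bases, and none was called with either trend removed. Of 16 MiT factors and genes of nutrient signalling at the lysosome 4 were higher and 3 lower (43.75% called), with a median of 0.0084. With the gene-length trend removed this list held 1 higher and 3 lower, and with the mRNA-length trend removed 1 higher and 2 lower. Tfeb (-0.060 ± 0.0847, edgeR adjusted p = 0.661), Tfe3 (-0.0064 ± 0.0585, edgeR adjusted p = 0.955) and Mitf (-0.15 ± 0.0703, edgeR adjusted p = 0.145), the factors that bind the element searched above, were not called. Rptor, the mTORC1 subunit raptor (-0.50 ± 0.0704, edgeR adjusted p = 0.000388), and Fnip2, a folliculin partner (-0.38 ± 0.0645, edgeR adjusted p = 0.000910), were lower, and the Ragulator subunit gene Lamtor4 higher (0.69 ± 0.101, edgeR adjusted p = 0.000388), and these 3 held with either trend removed. The 3 tested cysteine protease inhibitors were all higher: Cst3, which encodes cystatin C and stood at 2214 ± 204 CPM with albiflorin and 1698 ± 67.6 CPM with RANKL (0.38 ± 0.0727, edgeR adjusted p = 0.00181), Cstb (0.37 ± 0.0759, edgeR adjusted p = 0.00263) and Cst7 (0.27 ± 0.0883, edgeR adjusted p = 0.0346). Their listed lengths were 1266, 599 and 986 bases, and none was called with either trend removed.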

How the data were processed

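Gene-level values were deposited for 6 libraries, grouped by their titles into 3 albiflorin and 3 RANKL; columns were matched on the letter and number in their names. Counts, as deposited, are whole reads per gene. The deposited FPKM values equalled those counts divided by listed gene length and a library total within -0.95% to 1.65% of the column total. Per the submitters' processing notes, the tools included HISAT2 2.2.1, DESeq2 1.42.0, fastp, CASAVA 1.8 and featureCounts 2.0.6-p3, without role or order; no source used here names the genome build. Gene identifiers carry the Ensembl prefix of the C57BL/6NJ strain, and gene coordinates are those of the deposited table.

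All rows were tested together with edgeR 4.0.16 (R 4.3.3): filterByExpr, TMM scaling and the quasi-likelihood F-test on group, Benjamini-Hochberg adjusted p under 0.05. CPM uses TMM-scaled library sizes. Fold changes are albiflorin over RANKL, the SE was computed as |log2 fold change|/sqrt(F), and 95% intervals use the test's degrees of freedom without adjustment. The fit was tested on simulated counts with the same dispersion for every gene and no length trend. That test therefore does not bear on calls that change with the length trends. Replicates of a group differed by more than sampling noise (chi-square per degree of freedom 3.80 to 9.30). Alternatives were RLE scaling, DESeq2 1.42.0, limma-voom (limma 3.58.1), no filter on low counts, a stricter filter (5 CPM in 3 libraries), a replicate block, omission of each library, limma on FPKM logged with 1 or 0.1 added, and removal of each library's lowess trend (span 0.3; genes over 3 in mean log2 CPM entered) on listed gene length or on GENCODE M21 principal mRNA length, which 79.6% of tested genes had; the rest took their listed length.

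Values in every library are given for called members, the most abundant member of each role and those next to the threshold, with up to 3 called genes of smallest p per further list; values of any other gene were chosen for printing after they were seen. Some genes that the rule names are not reported here. Of the further lists, 28 of 31 hydrolases, 24 of 24 membrane genes, 14 of 14 sorting genes, 18 of 18 signalling genes and 4 of 6 inhibitors were matched. The members and lists were chosen with earlier results of these data known. Promoter sequences are RefSeq's, of GRCm38.p6, and were matched by symbol.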

Additional observations from a re-analysis of the deposited data

How the results depend on the processing

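No pairing of libraries by replicate number was seen: deviations of same-numbered libraries from their group means correlated across genes at 0.022, -0.043 and -0.066, and not every library correlated best with its own number. With 3 libraries per group this check cannot exclude that same-numbered libraries were prepared together. With the replicate block, 1358 genes were higher and 1214 lower among all tested, and 2 members were higher and 4 lower. On log2(FPKM + 1) and log2(FPKM + 0.1), 2 members were higher, and 901 and 909 of all tested genes lower. Removing the trend on gene length left 945 genes higher, 1 of them a member; removing that on mRNA length left 663 genes higher and 724 lower. Leaving out each library in turn gave 984 to 1753 higher and 914 to 1644 lower genes, and 2 to 4 higher and 3 to 7 lower members; the counts of all genes moved most without albiflorin replicate 1 (984 higher, 977 lower) and RANKL replicate 2 (1010 higher, 914 lower), and without albiflorin replicate 2 there were 1025 higher. The median log2 fold change of glycosidases was -0.017 without the gene-length trend and 0.019 without the mRNA-length trend, against 0.081 as counted. For membrane genes these medians were -0.073 and -0.058, against 0.014. Without the mRNA-length trend the median was -0.15 for sulphatases and 0.038 for proteases. On leaving out each library, medians ran from -0.028 to 0.040 for lipid handling, from 0.051 to 0.11 for glycosidases, from 0.064 to 0.16 for proteases, from 0.0034 to 0.020 for membrane genes and from -0.32 to -0.26 for sulphatases. The cause of these shifts was not tested. Of the members' fold changes under all alternatives, 506 kept their side of the threshold, 36 lost a call and 18 gained one, and none that was called changed sign. Ctsh, with the fewest reads, had the widest interval.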

Other observations

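Regrouping both sets of lysosomal genes by substrate, a choice made after the values were seen and therefore given without a test, brought the following. Ganglioside breakdown showed no call among 5 genes, against 23.8% of all tested genes called, at a median of 0.12. With the gene-length trend removed the median was -0.017, again with no call. With the mRNA-length trend removed it was 0.044, and 1 gene, Gm2a, was called higher (adjusted p = 0.0323, by edgeR). For release and export of cholesterol, Npc2 was higher, Npc1 lower and Lipa not called. These are 3 genes, 66.7% of them called, against 23.8% of all tested genes. Npc2 was called in 4 of 16 alternatives and Npc1 in 6. Papain-family cathepsins held 2 higher (Ctss and Ctsl) and 0 lower of 8 tested, with Ctsf (-0.073, edgeR adjusted p = 0.435) and Ctso (-0.10, edgeR adjusted p = 0.406) among those not called. That is 25% called, close to the 23.8% of all tested genes. With the gene-length trend removed 0 were higher and 1 lower, and with the mRNA-length trend removed 1 was higher and 1 lower. Ctsf was lower with either length trend removed (adjusted p = 0.00697 for gene length and 0.0249 for mRNA length, by edgeR), and Ctsk was too low to test. Sumf1, which makes the formylglycine in the active site of sulphatases, was not called (0.070, edgeR adjusted p = 0.441).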
